A study of Mus musculus with 22 samples.

Results

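The genes described here code for the inwardly rectifying potassium channels of the GIRK family and for the receptor that most often opens them in the brain. The 7 members are Kcnj6, Kcnj15, Kcnj3, Kcnj5, Kcnj9, Gabbr1 and Gabbr2, chosen by name among 21225 measured features, and all 7 are among the 20239 features with a gene symbol that were tested. Kcnj6 and Kcnj15 lie in the chromosome 16 segment that is triplicated in Ts1Cje mice, and the other 5 members lie on other chromosomes. The study profiled 6 Ts1Cje females and 5 wild-type (WT) littermates, 8 to 10 weeks old, with 1 array of cortex and 1 of hippocampus from each of the 11 animals. Ts1Cje is a model of Down syndrome with an extra copy of distal chromosome 16 carried on chromosome 12, and only part of the genes triplicated in the syndrome are in that segment. Per the labels, the line was kept by crossing Ts1Cje males to C57Bl/6J females, no group received a treatment, and RNA was prepared with NucleoSpin RNA L in cortex and RNA II in hippocampus, so kit and region cannot be told apart.

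GIRK channels let potassium leave a neuron when a receptor coupled to inhibitory G proteins frees the beta-gamma subunits that bind the channel, and the neuron is then harder to excite. Each channel is a tetramer, and Kcnj6 (GIRK2) can pair with Kcnj3 (GIRK1) or Kcnj9 (GIRK3), while Kcnj5 (GIRK4) is best known from the heart. Kcnj15 codes for Kir4.2, a related inward rectifier that is not opened by G proteins. Gabbr1 and Gabbr2 code for the subunits of the GABA-B receptor, which responds to the transmitter GABA and acts on GIRK channels in hippocampal and cortical neurons.

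In the RefSeq gene table of the mouse assembly GRCm38.p6, Kcnj6 spans chr16:94744980-94997696 and Kcnj15 is the next measured gene after it, at chr16:95257558-95300260. Kcnj3 lies at chr2:55411798-55598145, Kcnj5 at chr9:32314706-32344380 and Kcnj9 at chr1:172320508-172329322. Gabbr1 lies at chr17:37045966-37074305 and Gabbr2 at chr4:46662318-46991714. For the array's probe definition, the build is not given in the sources used here. Windows of 250 bases before the annotated start are shown for Kcnj6 and Kcnj15, because both genes are triplicated and their signals differ in the results that follow. They are printed 5′ to 3′ on the strand of the gene, with each CG pair in capitals. The Kcnj6 window is chr16:94997697-94997946 on the minus strand and belongs to the outermost of its annotated starts, and the Kcnj15 window is chr16:95257308-95257557 on the plus strand.
Kcnj6: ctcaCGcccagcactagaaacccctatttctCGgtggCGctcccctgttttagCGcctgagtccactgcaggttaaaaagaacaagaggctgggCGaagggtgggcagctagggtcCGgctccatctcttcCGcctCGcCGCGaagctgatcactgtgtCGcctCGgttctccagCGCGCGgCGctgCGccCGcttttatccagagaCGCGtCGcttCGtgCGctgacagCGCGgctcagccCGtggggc
Kcnj15: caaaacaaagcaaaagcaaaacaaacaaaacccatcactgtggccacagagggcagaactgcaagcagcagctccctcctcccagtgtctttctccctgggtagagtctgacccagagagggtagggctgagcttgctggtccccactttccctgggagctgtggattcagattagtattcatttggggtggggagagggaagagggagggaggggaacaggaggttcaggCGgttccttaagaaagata
The Kcnj6 window holds 26 CG pairs, a number that 9.59% of 32851 such RefSeq windows reach, and the Kcnj15 window holds 1, which 92.1% reach. The median window holds 6. A second annotated Kcnj6 start, inside the gene, has 7 in its window. The windows of the other members, not printed, hold 7 for Kcnj3, 7 for Kcnj5, 5 for Kcnj9, 16 for Gabbr1 and 37 for Gabbr2. These counts describe the letters, and their relation to signal, methylation or binding was not tested.

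In both regions 1 WT animal (60) and 1 Ts1Cje animal (64) stood apart. The SD of log2 signals over features was 1.861 and 1.949 on their cortex arrays and 2.056 and 1.985 in hippocampus, against 2.14 to 2.22 on the other 18 arrays. Results for the members, for the segment and for its neighbours are therefore also given without both animals. Marker genes followed the labelled tissues, relative to each array's median. Of 12 markers of hippocampal neurons 11 were higher in the hippocampus of WT mice, and all 10 pan-neuronal markers lay above the array median in every group. All 8 measured markers of striatal neurons lay above the array median in cortex and were lower in hippocampus. Of 8 markers of dopaminergic neurons, a cell type known for high Kcnj6, 2 lay above the array median in cortex and 1 in hippocampus.

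Kcnj6, the segment's GIRK subunit, had a higher mean signal in Ts1Cje than in WT mice in both regions, by 1.22 times in cortex and 1.28 times in hippocampus. It passed an exact test on its own values in each region, a test not run for the other 6 members. It did not pass the limma test adjusted over all 20239 genes. The other 6 members had genotype differences between -0.15 and 0.03 on the log2 scale, with the triplicated Kcnj15 among them. None of the 7 members passed the adjusted test in either region, where 0.00494% of tested genes passed in cortex (1 gene) and 0.114% in hippocampus (23 genes, 0.104% higher and 0.00988% lower in Ts1Cje mice).

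In cortex, the log2 signal of Kcnj6 was 8.53, 8.69, 8.37, 8.39 and 8.70 in WT animals 60, 62, 65, 95 and 98. The 6 Ts1Cje cortex arrays ran from 8.70 (animal 64) through a median of 8.85 to 8.89. The groups met at 1 point, since WT animal 98 and Ts1Cje animal 64 had the same signal, and WT animals 65 and 95 were the lowest. No member's cortex groups were without overlap, which 0.232% of tested genes showed with Ts1Cje higher and 0.0741% with Ts1Cje lower. Means were 8.54 ± 0.16 (SD, n = 5) in WT and 8.83 ± 0.07 (SD, n = 6) in Ts1Cje mice. The difference was 0.29 ± 0.08 (SE) on the log2 scale, with a 95% interval of 0.12 to 0.46. The two-sided exact permutation test over the 462 splits of the 11 animals gave p = 0.00433, where the smallest possible p is 0.00216. Over all genes, limma gave a Benjamini-Hochberg adjusted p of 1. Without animals 60 and 64 the difference was 0.31 ± 0.07 (SE), adjusted p = 0.445 in limma.

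In hippocampus, the WT signals of Kcnj6 were 8.07, 8.34, 8.20, 8.02 and 8.23 in animals 60, 62, 65, 95 and 98. Ts1Cje signals ran from 8.41 (animal 87) through a median of 8.51 to 8.75 (animal 63). Every Ts1Cje array was above every WT array, which was the case for 0.38% of tested genes (0.257% in the other direction). Means were 8.17 ± 0.13 (SD, n = 5) and 8.53 ± 0.12 (SD, n = 6). The difference was 0.35 ± 0.08 (SE), with a 95% interval of 0.19 to 0.52, and the exact permutation test gave p = 0.00216, the smallest it can give. In the limma fit Kcnj6 had the 37th lowest p of 20239 genes and an adjusted p of 0.295. Without animals 60 and 64 the difference was 0.35 ± 0.08 (SE), adjusted p = 0.297 in limma.

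When the arrays of each animal were averaged, Kcnj6 was higher in all 6 Ts1Cje animals than in all 5 WT animals, as were 0.316% of tested genes (0.217% lower in all). The difference was 0.32 ± 0.06 (SE), or 1.25 times, with an adjusted p of 0.219 in limma, where 0.0593% of genes passed (0.0544% higher in Ts1Cje mice). With weights that count deviating arrays less, the difference over animal means was 0.35 and the adjusted p 0.0224 in limma, where 0.336% of genes passed. With such weights Kcnj6 did not pass in cortex alone or in hippocampus alone. The genotype effect was not shown to differ between regions, with an interaction of 0.06 ± 0.11 (SE), a 95% interval of -0.16 to 0.29 and an adjusted p of 1 in limma. In that interaction fit 0 of 20239 genes passed in limma, and 260 had an unadjusted p under 0.05. With animals 60 and 64 left out, the difference over animal means was 0.33 (adjusted p = 0.125 in limma) and the interaction 0.03 with an interval of -0.21 to 0.27. Both regional intervals for Kcnj6 end below 0.58, the log2 of the 3 to 2 copy ratio of the segment. Whether signals on these arrays scale in proportion to RNA was not tested.

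No marker list of a cell type had a member that passed the genotype test in either region. Over all 20239 tested genes, 10421 had a lower mean in Ts1Cje mice in cortex and 10877 in hippocampus. In cortex 8 of 8 striatal markers had a higher mean in Ts1Cje mice, with a median difference of 0.17. So had 8 of 10 interneuron (0.10), 8 of 9 oligodendrocyte (0.09), 7 of 9 microglia (0.09) and 8 of 10 pan-neuronal markers (0.03). A lower mean was found for 9 of 11 choroid plexus and ependyma markers (-0.12) and 8 of 10 astrocyte markers (-0.02). In hippocampus 10 of 10 astrocyte markers (median -0.10), 9 of 11 choroid plexus and ependyma markers (median -0.17) and 10 of 11 endothelial and pericyte markers (median -0.05) had a lower mean. So had 9 of 12 hippocampal neuron (-0.08) and 6 of 7 excitatory neuron markers (-0.02). Higher there were 8 of 9 oligodendrocyte (0.05) and 7 of 10 interneuron markers (0.02). The other lists split more evenly. The part of these markers in the Kcnj6 values was not tested. In tissue pieces such as these, fewer cells of a type and less RNA per cell cannot be told apart.

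**Figure D1:**
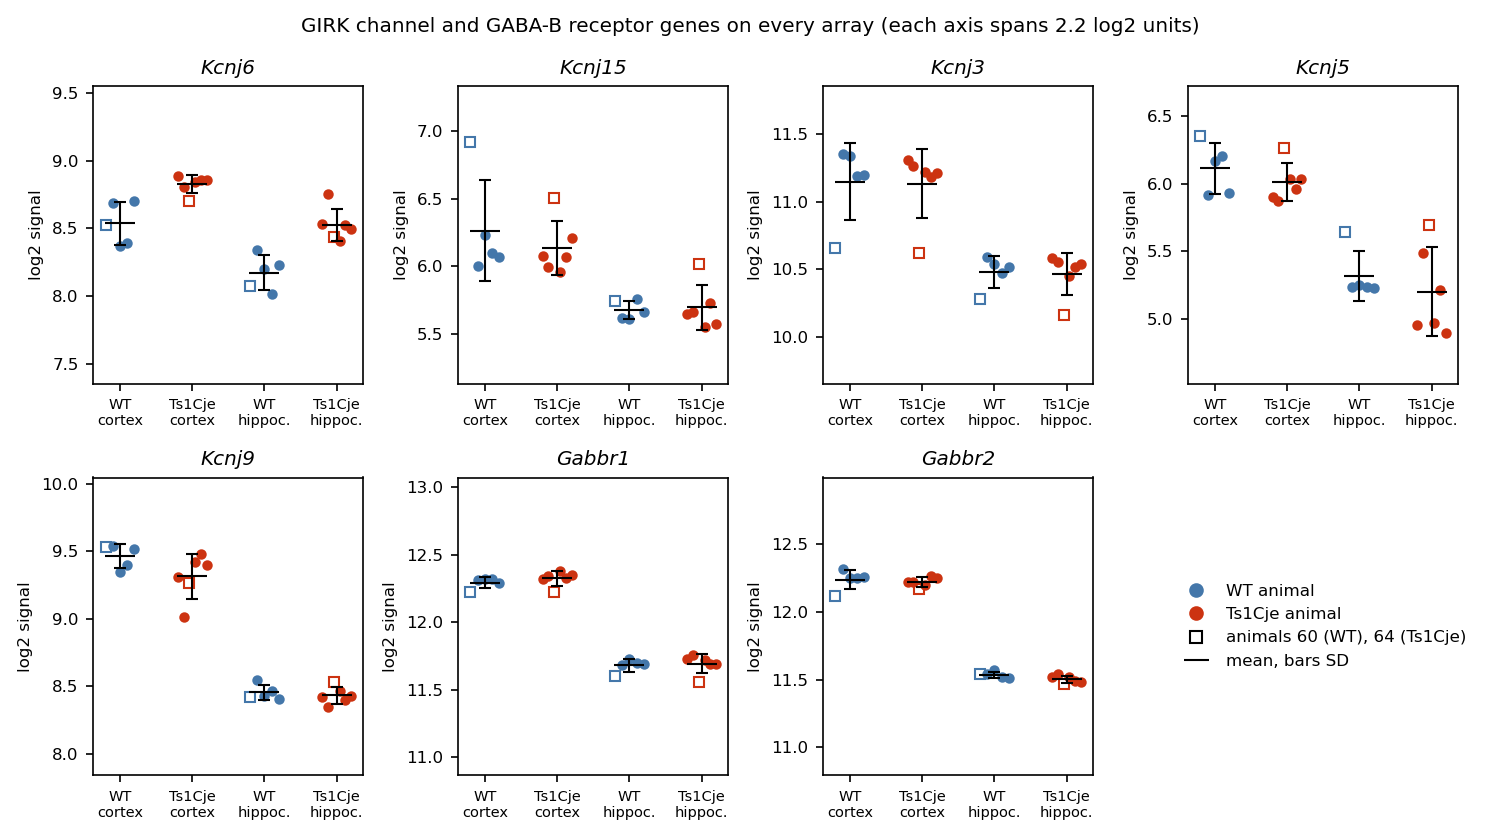
Log2 signal (vertical axis, the same span in each panel) of the 7 genes on all 22 arrays, with 1 point per animal in the 4 groups on the horizontal axis; horizontal marks are means and bars are SD. For Kcnj6 the 6 Ts1Cje hippocampus arrays, at 8.41 to 8.75, lie above the 5 WT arrays, at 8.02 to 8.34, while the other genes overlap between genotypes; open squares are animals 60 and 64.

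Kcnj15, the other triplicated member, was dim. Its WT cortex signals were 6.92, 6.00, 6.23, 6.10 and 6.07 in animals 60, 62, 65, 95 and 98, and Ts1Cje cortex signals ran from 5.96 through 6.07 to 6.50. These values lie on average 1.32 below the array median in WT and 1.46 below in Ts1Cje mice. Animals 60 and 64 gave the highest value of their groups, and the groups overlapped. The difference was -0.13 ± 0.16 (SE), with a 95% interval of -0.48 to 0.23, and without animal 60 it was 0.03 ± 0.10 (SE). In hippocampus WT signals were 5.74, 5.61, 5.61, 5.76 and 5.66 in the same order of animals, and Ts1Cje signals ran from 5.55 through 5.66 to 6.01. The difference was 0.02 ± 0.08 (SE), with an interval of -0.15 to 0.19, and it was -0.03 without animals 60 and 64. The adjusted p was 1 in limma in both regions. The deposited values carry no detection call, so whether Kcnj15 was above background in these tissues is not known.

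Kcnj3, the GIRK1 subunit that joins Kcnj6 in many neuronal channels, lay 3.51 to 3.56 above the array median in the group means. WT cortex signals were 10.66, 11.35, 11.34, 11.19 and 11.20 in animals 60, 62, 65, 95 and 98, and Ts1Cje signals ran from 10.62 (animal 64) through 11.21 to 11.31. Animals 60 and 64 were below the others, and the other 9 arrays lay within 11.18 to 11.35. The genotype difference was -0.01 ± 0.15 (SE) in cortex and -0.01 ± 0.08 (SE) in hippocampus. Its 95% intervals were -0.35 to 0.32 and -0.19 to 0.17. Hippocampal signals were 10.28, 10.59, 10.54, 10.47 and 10.52 in the WT animals, and ran from 10.16 (animal 64) through 10.53 to 10.58 in Ts1Cje mice. Without both animals the cortex difference was -0.03 with an interval of -0.14 to 0.08.

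Kcnj9, the GIRK3 subunit, had WT cortex signals of 9.53, 9.54, 9.34, 9.40 and 9.52 in animals 60, 62, 65, 95 and 98. The Ts1Cje cortex signals ran from 9.02 (animal 63) through 9.36 to 9.48. The groups overlapped, and the difference was -0.15 ± 0.09 (SE), with an interval of -0.34 to 0.04 and an adjusted p of 1 in limma. In hippocampus the WT signals were 8.42, 8.55, 8.43, 8.47 and 8.41, and Ts1Cje signals ran from 8.35 through 8.43 to 8.53. There the difference was -0.02 ± 0.05 (SE), interval -0.13 to 0.08.

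Kcnj5, the GIRK4 subunit, was dim too, at 1.47 to 1.75 below the array median in the group means. WT cortex signals were 6.35, 5.92, 6.17, 6.20 and 5.93, and Ts1Cje signals ran from 5.87 through 6.00 to 6.26. In hippocampus WT signals were 5.64, 5.23, 5.25, 5.23 and 5.23, and Ts1Cje signals ran from 4.89 through 5.09 to 5.70. The highest value in each of the 4 groups came from animal 60 or 64. Differences were -0.10 ± 0.10 (SE) in cortex and -0.12 ± 0.15 (SE) in hippocampus, adjusted p = 1 in limma for both. Leaving out animals 60 and 64 gave -0.09 in cortex for Kcnj5 and -0.13 for Kcnj9, and none of the 7 members passed a genotype test in limma then either.

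Both GABA-B receptor subunits were bright and varied little between animals. Gabbr1, which carries the GABA binding site, had WT cortex signals of 12.22, 12.31, 12.32, 12.32 and 12.29, and Ts1Cje signals from 12.22 through 12.33 to 12.38. Its hippocampal means were 11.68 ± 0.05 (SD, n = 5) in WT and 11.69 ± 0.07 (SD, n = 6) in Ts1Cje mice. The genotype difference was 0.03 with a 95% interval of -0.09 to 0.15 in cortex, and 0.01 with an interval of -0.09 to 0.12 in hippocampus. Gabbr2, which couples the receptor to G proteins, had WT cortex signals of 12.12, 12.32, 12.25, 12.25 and 12.26 and Ts1Cje signals from 12.17 through 12.22 to 12.27. Its cortex means were 12.24 ± 0.07 (SD, n = 5) and 12.22 ± 0.03 (SD, n = 6). In hippocampus the WT arrays ran from 11.51 to 11.57 and the Ts1Cje arrays from 11.47 to 11.54. The 95% intervals of its genotype difference were -0.13 to 0.11 in cortex and -0.11 to 0.05 in hippocampus. The Kcnj6 differences of 0.29 and 0.35 lie outside these intervals and outside those of Gabbr1. The wider cortex interval of Kcnj3, -0.35 to 0.32, contains 0.29. Whether the genotype difference of Kcnj6 differs from that of another member was not tested.

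Kcnj6 was set against the genes of its own segment. Over the 73 measured segment genes, the median genotype difference was 0.33 in cortex and 0.29 in hippocampus, against -0.003 and -0.006 over all tested genes. Counted from the highest difference, Kcnj6 ranked 39 of 73 in cortex and 25 of 73 in hippocampus, and Kcnj15 ranked 71 and 69. In hippocampus 17 of the 73 passed the adjusted test, all higher in Ts1Cje mice, and in cortex 0 passed in limma, with 44 at an unadjusted p under 0.05. Over all 20239 tested genes 0.114% passed in hippocampus and 0.00494% in cortex, where 263 had an unadjusted p under 0.05. When animals 60 and 64 were left out, 27 of the 73 passed in cortex and 26 in hippocampus, all higher in Ts1Cje mice. Over all tested genes 0.158% and 0.183% passed then. With array weights 38 of the 73 passed in cortex, beside 0.247% of all tested genes. The hippocampal count of 17 was 28 without animal 64 alone (0.173% of all tested genes passed) and 0 to 3 without any other single animal. In cortex 5 passed without animal 64 and 0 without any other. Sod1, just outside the segment as counted here, was 0.74 ± 0.10 (SE) higher in hippocampus, adjusted p = 0.0214 in limma. That call held without animal 60 or 64 and not without any other, where the adjusted p reached 0.0976.

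Among the 10 genes from Ttc3 to Hmgn1 around Kcnj6, 4 rose in the hippocampus of Ts1Cje mice and 6 did not pass. Over all tested genes 0.114% passed there. Dyrk1a, a protein kinase gene that is the nearest measured neighbour on the other side from Kcnj15, ran from 10.41 to 10.47 in WT and from 10.72 to 10.90 in Ts1Cje mice. Its difference was 0.34 ± 0.04 (SE), adjusted p = 0.0209 in limma, beside 0.35 ± 0.08 (SE) for Kcnj6. Vps26c, a subunit of an endosomal sorting complex, rose by 0.47 (adjusted p = 0.0209). Brwd1, a chromatin reader, rose by 0.41 (adjusted p = 0.0214) and Ets2, a transcription factor, by 0.44 (adjusted p = 0.0462). Ttc3, a ubiquitin ligase, and Psmg1, a proteasome assembly factor, did not pass, with 0.33 and 0.29, and Hmgn1, a nucleosome-binding protein, had 0.19. Erg, an ETS factor gene of endothelial cells next to Kcnj15 on the far side, had 0.0004, so the adjacent pair of Kcnj15 and Erg had the smallest hippocampal differences of the 10. These 4 calls held without animal 64, and that of Dyrk1a also without animal 63. When any of the others (60, 61, 62, 65, 87, 94, 95, 97 or 98) was left out none of the 4 passed, with differences still between 0.32 and 0.52, and the count of 23 genes fell to between 1 and 4. In cortex 0 of the 10 passed in limma, with 7 at an unadjusted p under 0.05, beside 263 of all 20239 tested genes. Without animals 60 and 64, 3 of the 10 passed in cortex, 6 in hippocampus and 6 over animal means (1 with all animals), all higher in Ts1Cje mice. Over all tested genes 0.158%, 0.183% and 0.257% passed then. The neighbours that passed in cortex were Vps26c (0.48), Dyrk1a (0.26) and Ets2 (0.51), and those that joined the 4 in hippocampus were Ttc3 (0.33) and Psmg1 (0.31).

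**Figure D2:**
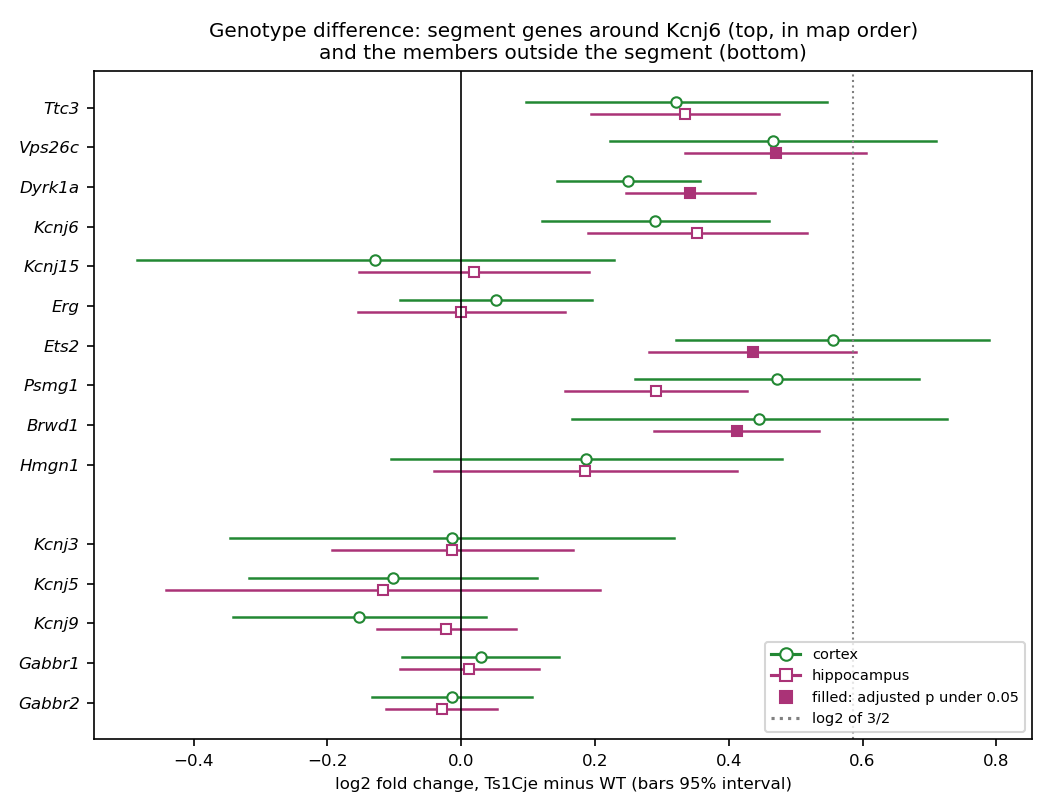
Genotype difference (log2, Ts1Cje minus WT, horizontal axis) with its 95% interval in cortex (circles) and hippocampus (squares), for 10 segment genes in map order and for the 5 members outside the segment. Kcnj6, at 0.29 and 0.35, lies among its neighbours; Kcnj15 and Erg lie near 0, and the intervals of the 5 members outside the segment include 0.

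The difference between Kcnj6 and another gene on the same array does not depend on how arrays are scaled against each other by a constant. The log2 signal of Kcnj6 minus that of Kcnj9 was -0.93 ± 0.09 (SD, n = 5) in WT cortex and -0.49 ± 0.15 (SD, n = 6) in Ts1Cje cortex. In hippocampus it was -0.28 ± 0.11 in WT and 0.09 ± 0.18 in Ts1Cje mice. In each region all Ts1Cje arrays had a higher value than all WT arrays, from -0.62 up against at most -0.82 in cortex and from -0.09 up against at most -0.18 in hippocampus. The cortex shift includes the difference of Kcnj9 itself, -0.15 ± 0.09 (SE), which did not pass. Kcnj6 taken alone was not free of overlap in cortex. Kcnj6 minus Kcnj3 did not overlap between genotypes in hippocampus (WT -2.45 to -2.21, Ts1Cje -2.05 to -1.72) but did in cortex, at -2.97 to -2.13 in WT and -2.45 to -1.91 in Ts1Cje mice. The WT cortex value of -2.13 came from animal 60, and without animal 60 the cortex groups did not overlap. Kcnj6 minus Kcnj5 overlapped in both regions, with 2.18 to 2.77 against 2.44 to 2.99 in cortex and 2.43 to 3.11 against 2.74 to 3.6 in hippocampus. The lowest Ts1Cje values, 2.44 and 2.74, came from animal 64, and without animal 64 neither region overlapped. How many other gene pairs separate the genotypes was not counted. Kcnj6 minus Dyrk1a, both triplicated, was -2.61 ± 0.18 and -2.57 ± 0.06 in cortex and -2.28 ± 0.13 and -2.27 ± 0.09 in hippocampus. Probes of different genes differ in brightness, so these values describe shifts between groups and not the make-up of channels.

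Between regions, Kcnj6 and Kcnj9 went in opposite directions once each array was centred on its own median. Deposited signals were lower in hippocampus for most genes, with a shift of -0.63 in the array medians, and centring removes that shift. Of the 7 members 1 was higher and 1 lower in hippocampus in each genotype, against 25.5% of tested genes that differed in WT mice (11.7% higher, 13.9% lower) and 29.6% in Ts1Cje mice (14.7% higher, 14.8% lower). Without centring, 1.36% of the genes that passed in WT and 1.27% of those in Ts1Cje mice were higher in hippocampus.

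Relative to the array median, WT Kcnj6 stood at 0.91, 1.13, 0.79, 0.82 and 1.12 in the cortex of animals 60, 62, 65, 95 and 98 and at 1.11, 1.38, 1.22, 1.05 and 1.27 in their hippocampus. In Ts1Cje mice it ran from 1.12 through 1.24 to 1.31 in cortex and from 1.44 through 1.56 to 1.80 in hippocampus. The hippocampus was higher in 5 of 5 WT and 6 of 6 Ts1Cje animals, and the Ts1Cje groups did not overlap (7.65% of tested genes in this direction), while the WT groups did. The centred difference was 0.25 ± 0.08 (SE), adjusted p = 0.0254 in limma, in WT and 0.34 ± 0.07 (SE), adjusted p = 0.00135, in Ts1Cje mice, whereas on the signals as deposited it was -0.36 and -0.30, the opposite direction. After quantile normalization Kcnj6 was again higher and passed in both genotypes, where 31.9% of tested genes passed in WT and 34.8% in Ts1Cje mice. Without WT animal 65 the centred WT difference was 0.21 with an adjusted p of 0.129. Without animals 60 and 64 the centred differences were 0.26 and 0.33, adjusted p = 0.0174 and 0.00135 in limma. In those fits 49.3% and 56.4% of tested genes passed.

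Kcnj9, by contrast, stood at 1.91, 1.98, 1.76, 1.84 and 1.94 above the array median in the cortex of WT animals 60, 62, 65, 95 and 98, and at 1.45, 1.59, 1.45, 1.50 and 1.45 in their hippocampus. The groups did not overlap, as was the case for 11.2% of tested genes in this direction. In Ts1Cje mice Kcnj9 ran from 1.42 through 1.74 to 1.89 in cortex and from 1.40 through 1.48 to 1.56 in hippocampus, and here the groups overlapped. The centred difference was -0.40 ± 0.07 (SE), adjusted p = 0.000184 in limma, in WT and -0.24 ± 0.06 (SE), adjusted p = 0.00608, in Ts1Cje mice. It was -0.38 and -0.27 without animals 60 and 64, and passed in both genotypes. Each of the 11 animals had less Kcnj9 in hippocampus by this measure. With quantile normalization the Ts1Cje difference was -0.19 and no longer passed (adjusted p = 0.0791). On centred arrays the other 5 members did not pass, with centred WT differences of 0.03 for Kcnj15, -0.05 for Kcnj3, -0.18 for Kcnj5, -0.00004 for Gabbr1 and -0.09 for Gabbr2. With quantile normalization both receptor genes passed as lower in hippocampus: Gabbr1 by -0.11 in each genotype (adjusted p = 0.0471 in WT and 0.0261 in Ts1Cje mice, limma) and Gabbr2 by -0.21 and -0.19 (adjusted p = 0.000322 and 0.000251). In Ts1Cje mice Gabbr2 differed by -0.08 with groups that did not overlap (8.42% of tested genes in this direction), adjusted p = 0.16 in limma. Without animals 60 and 64, Gabbr2 (-0.13 and -0.08) and Kcnj15 (0.17 and 0.22) passed in both genotypes, and Kcnj3 (-0.13) passed in WT mice. With these animals left out, 49.3% of all tested genes passed in WT and 56.4% in Ts1Cje mice. With quantile normalization the shares were 31.9% and 34.8%.

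**Figure D3:**
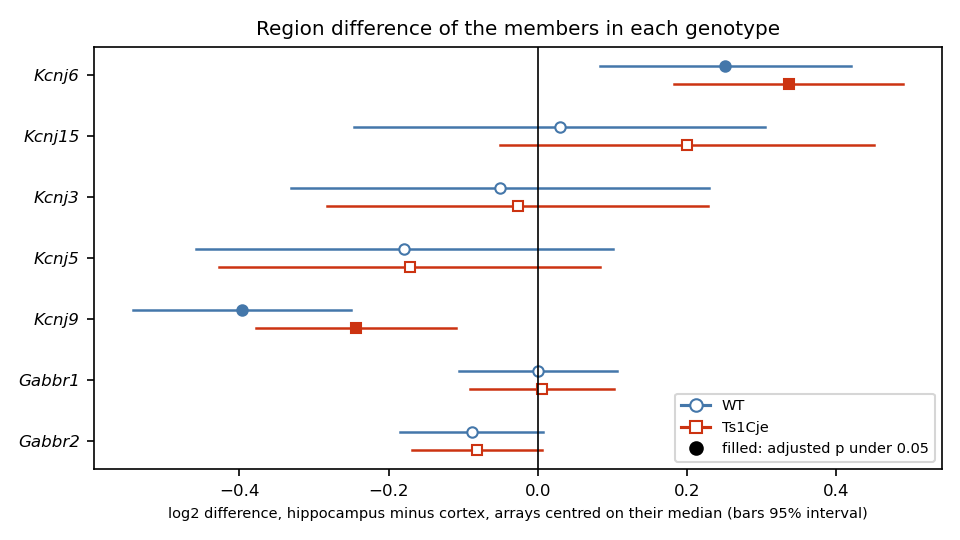
Region difference (log2, hippocampus minus cortex, arrays centred on their median, horizontal axis) of the 7 members in WT (circles) and Ts1Cje mice (squares), with 95% intervals; filled symbols passed at adjusted p under 0.05. Kcnj6 lies above 0 and Kcnj9 below 0 in both genotypes; on uncentred signals Kcnj6 lies at -0.36 and -0.30.

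The genes around the channel were taken as lists, and none of their members outside the segment passed a genotype test. Of 10 other inward rectifiers, 9 GABA-B auxiliary and binding proteins, 23 receptors of the inhibitory G protein class, 19 G protein subunits and 19 RGS proteins and partners, 0 passed in limma in cortex or hippocampus, with 1 and 2 genes at an unadjusted p under 0.05. Their median differences lay between -0.04 and 0.05, against -0.003 in cortex and -0.006 in hippocampus over all genes. Adora1, Adra2a, Adra2b and Itpr1 were not measured. Chrm2, the muscarinic M2 receptor that opens GIRK channels, had the lowest p of these in hippocampus. It ran from 7.86 to 8.02 in WT and from 8.06 to 8.21 in Ts1Cje hippocampus without overlap, a difference of 0.20 ± 0.05 (SE) with an adjusted p of 0.464 in limma. Of the 23 receptors it was the 1 without overlap, beside 0.38% of tested genes in this direction and 0.257% in the other. Htr1a, a serotonin receptor, had -0.12 ± 0.05 (SE) there, and Rgs14, which speeds the shut-off of inhibitory G proteins, had 0.14 ± 0.06 (SE) in cortex, both with an adjusted p of 1. Of the 13 genes that make or break down PIP2, the membrane lipid that GIRK channels need to open, 1 rose in hippocampus. It was Synj1, a PIP2 phosphatase gene of the triplicated segment, with 0.41 ± 0.05 (SE) and an adjusted p of 0.0209 in limma, and 0.43 ± 0.06 (SE) with an adjusted p of 0.0921 in cortex. Its hippocampal call held when animal 64 was left out, and not when any other single animal was. Synj1 passed in both regions without animals 60 and 64 (0.42 in each, adjusted p = 0.00102 in cortex and 0.00143 in hippocampus, limma).

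Many more of these genes differed between regions, always relative to the array median. In WT mice 5 of 23 receptors were higher and 10 lower in hippocampus, with a median of -0.24. This and the counts below stand beside 25.5% of all tested genes that differed in WT mice and a median of -0.02. Npy2r, a neuropeptide Y receptor, was higher by 2.68, while Oprk1, the kappa opioid receptor, was lower by 2.46 (log2 difference -2.46) and Chrm2 differed by -1.19. Drd2, at -2.68, is itself one of the striatal markers. Of 19 RGS proteins and partners 2 were higher and 9 lower, with a median of -0.31. Rgs14 was higher by 0.83, and Rgs6 (-1.76) and Rgs4 (-1.57), which shorten receptor responses, were lower, as was the striatal marker Rgs9 (-2.26). Of the 9 genes listed as GABA-B auxiliary and binding proteins 2 were higher and 4 lower. Kctd12, which speeds desensitization of the receptor response, was higher by 0.75 and Kctd12b by 0.59, whereas Kctd16 differed by -0.58 and Gpr158 by -0.49. The same 4 genes passed in the same directions in Ts1Cje mice, at 0.81, 0.65, -0.53 and -0.49.

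Of the 10 other inward rectifiers 1 was higher and 4 lower in WT hippocampus. Kcnj13, a channel of choroid plexus epithelium, was higher by 2.66 ± 0.42 (SE), and its WT cortex arrays spread from -0.23 to 2.31 around the array median. Kcnj4, a neuronal inward rectifier, had -0.70 ± 0.08 (SE), Kcnj12 -0.55 and Kcnj1 -0.68, which did not pass without WT animal 62, 65, 95 or 98. G protein subunits split evenly, with 4 of 19 higher and 4 lower, Gng4 (-0.73) and Gnb4 (-0.62) against Gnai3 (0.54) and Gng2 (0.34). Of the 13 PIP2 genes 3 were higher and 4 lower, with Pip5k1b at 1.21 and Plcb4 at -1.62. All 11 measured markers of choroid plexus and ependyma were higher in WT hippocampus (median 1.73) and all 8 striatal markers were lower (median -1.90). On the deposited scale the mean of the striatal markers ran from 9.79 to 10.49 over WT cortex arrays and from 7.47 to 7.63 over WT hippocampus arrays. Their part in the region differences was not tested.

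**Figure D4:**
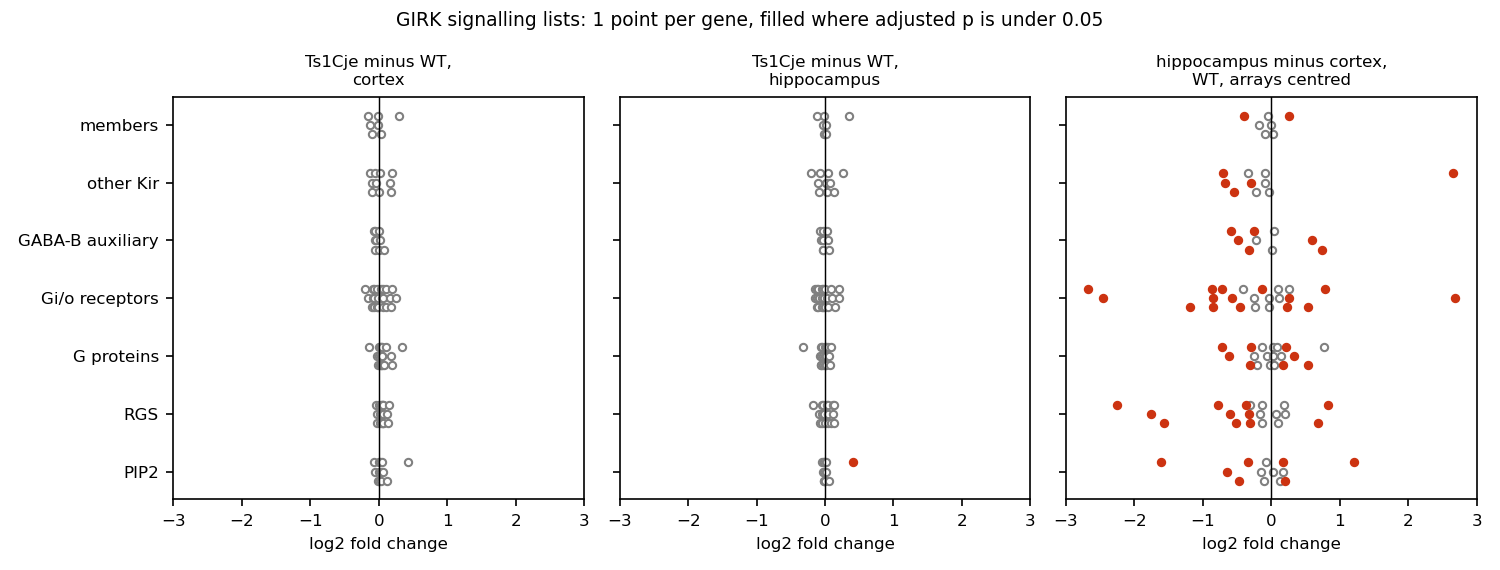
Log2 fold change (horizontal axis) of each gene in the member list and 6 lists of GIRK signalling genes (rows), for genotype in cortex, genotype in hippocampus and region in WT mice on centred arrays; each point is 1 gene and filled points passed at adjusted p under 0.05. The genotype panels hold 1 filled point, Synj1 in hippocampus, and the region panel has filled points on both sides of 0 in every row.

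For 5 members brighter than the median gene, the genes with the most similar pattern over the 22 arrays were found by the root mean square difference of centred signals after each gene's mean was removed, among 10119 bright genes. The nearest to Kcnj6 were Cyb5r1 (0.142), Synj1 (0.143), Crispld1 (0.154), Prdm15 (0.154) and Ifngr2 (0.168), where the median bright gene was at 0.294. Synj1, Prdm15 and Ifngr2 lie in the triplicated segment. Cyb5r1 and Crispld1 lie on chromosome 1, with genotype differences of 0.25 and 0.15 in cortex and 0.21 and 0.14 in hippocampus that did not pass. The nearest to Kcnj3 were Mtx3 (0.0629) and Oxct1 (0.0634), and to Kcnj9 Ssh3 (0.0819) and Pick1 (0.0911). Gabbr1 was nearest to Arl2bp (0.0380) and Entpd4 (0.0391), and Gabbr2 to Kif1a (0.0378) and Brsk1 (0.0379). The arrays share their animals and their spread, so these distances describe these 22 arrays. Signals were not scaled by each gene's spread, so genes that vary little lie near each other without a shared pattern. The 22 arrays hold both genotypes and both regions, so genes that share those differences lie nearer.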

How the data were processed

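The platform was the Affymetrix mouse gene 1.0 ST array. The values the authors deposited are log2 signals, 1 per array and Entrez gene number, made with RMA per the submitters' processing notes. The sources used here do not state its version, the probe definition or whether it was run on both regions at once. Of 21225 features 20239 had a gene symbol and were tested, and 986 had none. No filter on dim genes was applied. Names and positions come from the RefSeq table of GRCm38.p6. Titles give WT animal 60 for a pair of arrays whose description gives 61, and the title was used.

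Fits used limma 3.58.1 under R 4.3.3 with lmFit and eBayes (two-sided, Benjamini-Hochberg over 20239 genes, adjusted p under 0.05), within each region, over animal means, and on all 22 arrays for region and interaction. Arrays were centred on their medians for region differences. Kcnj6 alone had an exact permutation test. The number of arrays limits the precision. The steps were tested on simulated data.

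The labels give an animal's cortex and hippocampus arrays the same number, which pairs them. Deviations from group means correlated within animals (median r 0.265, range 0.052 to 0.761). The consensus correlation of the replicate block was 0.436. Members, lists and the naming rule were chosen with earlier results of these data known. The rule named all members, all neighbours of Kcnj6 and, from each list, up to 4 genes that passed or the 2 lowest p, plus the nearest patterns, Sod1 and Dyrk1a. Genes named are a part of what it gives. Alternatives were a trend with a robust prior, array weights, quantile normalization, other centring, the dimmest 6747 genes left out, 1 fit on all arrays, a covariate for the number series of the animals, the animal as a block, and animals left out.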

Additional observations from a re-analysis of the deposited data

Results flagged for a closer look

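Among 28 groups of 5 or 6 arrays checked for the 7 genes, 9 held a value set apart from the rest by a gap that exceeds Dixon's 95% limit, and chance alone gives about 1 in 20. Kcnj6 in the hippocampus of Ts1Cje animal 63 was at 8.753, with the next array at 8.529. The other 8 values came from animals 60 and 64. Kcnj15 was at 6.915 and Kcnj3 at 10.66 in the cortex of WT animal 60, where the nearest arrays were at 6.228 and 11.19. In Ts1Cje animal 64, Kcnj3 was at 10.62 in cortex and 10.16 in hippocampus, against nearest values of 11.18 and 10.45. Kcnj5 was at 5.644 in the hippocampus of WT animal 60, against 5.25. Gabbr1 was at 12.22 in the cortex of both WT animal 60 and Ts1Cje animal 64, against 12.29 and 12.32, and at 11.56 in the hippocampus of animal 64, against 11.69.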

How the results depend on the processing

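For the genotype tests, the count of genes that passed moved more than the count of members. For the region tests both counts moved. In cortex (1 gene) it was 3 with a trend and robust prior or with the dimmest genes left out, 13 with quantile normalization, 23 in 1 fit on all arrays, 32 without animals 60 and 64, and 50 with array weights. In hippocampus (23) it was 37 without these animals and 54 with weights. Over animal means (12) it was 20 with a trend, 27 without dim genes, 31 with quantile normalization, 52 without the animals and 68 with weights, where 1 member, Kcnj6 (0.347), passed. For region in WT mice (5170 genes, 2 members) weights gave 11117 and 6, no centring 18453 and 7, and leaving out both animals 9985 and 5. Quantile normalization gave 6464 genes and 4 members there. In Ts1Cje mice (5983 and 2) weights gave 11422 and 5, no centring 18229 and 7, and leaving out both animals 11417 and 4. Uncentred, Kcnj6 turned to -0.364 and -0.301, Kcnj15 to -0.586 and -0.438, and Gabbr1 in Ts1Cje mice to -0.632 (-0.113 with quantile normalization). Uncentred signals carry the shift of the array medians, and the cause of the other changes was not tested.

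Differences near 0 changed sign: in hippocampus Kcnj15 to -0.0129 with weights and -0.028 without both animals, and Kcnj3 to 0.0037 with weights. For the interaction, centring gave 0.00763 for Kcnj5, 0.0059 for Gabbr1 and 0.00712 for Gabbr2, which was 0.0157 with quantile normalization and 0.0112 without both animals.

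Leaving out each animal in turn gave 1 to 7 genes in cortex, 1 to 35 in hippocampus, 1 to 33 over means, 3979 to 6600 and 4704 to 7575 for region, with 1 to 3 members in WT mice. In hippocampus 35 came without animal 64, and 1 to 8 without any other. Over means 33 came without animal 64, 13 without 60, and 1 to 3 without any other. In cortex 7 came without 64 and 2 without 60. Kcnj6 ran from 0.249 to 0.332 in cortex, 0.307 to 0.395 in hippocampus, 0.283 to 0.362 over means, 0.013 to 0.11 for the interaction, and 0.206 to 0.277 and 0.287 to 0.369 for region. Its exact p ran from 0.00476 to 0.0159. Ranges that crossed 0 were, in cortex, -0.202 to 0.0346 for Kcnj15, -0.136 to 0.0887 for Kcnj3 and -0.0436 to 0.00604 for Gabbr2. In hippocampus they were -0.0441 to 0.0485 for Kcnj15, -0.0627 to 0.0479 for Kcnj3, -0.0419 to 0.00126 for Kcnj9 and -0.00736 to 0.0385 for Gabbr1. Over means they were -0.123 to 0.035 for Kcnj15 and -0.0995 to 0.0683 for Kcnj3. For the interaction they were -0.0409 to 0.0736 for Kcnj3, -0.0998 to 0.0505 for Kcnj5 and -0.0341 to 0.0147 for Gabbr2, and for region -0.0285 to 0.168 for Kcnj15 and -0.00847 to 0.00886 for Gabbr1 in WT and -0.00448 to 0.0187 for Gabbr1 in Ts1Cje mice.

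With each animal taken as a replicate block, random or fixed, 7726 or 7503 genes passed for region in WT and 8658 or 8560 in Ts1Cje mice, and 0 for the interaction. Pairing changed no member's call: Kcnj6 (0.251 and 0.337) and Kcnj9 passed as without it.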
